A study of Mus musculus with 35 samples.

Results

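In mice that lack PPARα, 1717 of 8626 expressed genes (19.9%) differed in the small intestine between an oral dose of the synthetic agonist WY14643 and an oral dose of the fatty acid DHA, 6 h after gavage. The groups compared were the 4 arrays of PPARα-null mice given WY14643 and the 4 arrays of PPARα-null mice given DHA, which are 8 of the 35 arrays of the series. The members are all expressed genes, taken by their probesets on an Affymetrix mouse genome array with a group mean above log2 5 (32 on the linear scale) in at least 1 of the 8 groups of the series. This gave 15384 probesets, 14907 of which passed in 1 of the 2 groups compared here.

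All mice were male and 4 months old. The PPARα-null mice were 129S4/SvJae and the wild-type mice 129S1/SvImJ, which are related but not identical substrains. Before the dose the animals ate a modified AIN76A diet, with olive oil in place of corn oil, for 2 weeks, and were then fasted for 4 h. WY14643 was given as 400 µl of a suspension in carboxymethyl cellulose, and DHA as 400 µl of tridocosahexaenoin, a triacylglycerol whose 3 fatty acids are all DHA. One mouse gave the RNA for each array, taken from the whole length of the small intestine. No array of a vehicle-treated mouse was analysed here, so that a higher level after WY14643 and a lower level after DHA cannot be told apart, and the agent, its carrier and the amount of fat delivered differed together. In whole tissue, fewer cells of a type and less RNA per cell cannot be told apart either.

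PPARα is a nuclear receptor that binds fatty acids and switches on genes for fatty acid oxidation, ketone formation and lipid transport. WY14643 is one of its classic synthetic ligands, and long-chain polyunsaturated fatty acids such as DHA are natural ones. Without the receptor, a fatty acid still reaches the enterocyte as fuel, as membrane material and as a ligand or modulator of other sensors, and a swallowed fat droplet still calls for bile, lipolysis and chylomicron assembly.

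The genotype labels were checked on the receptor gene and on its target Cyp4a10, a fatty acid omega-hydroxylase. The probeset for Cyp4a10, which also matches Cyp4a31, lay between log2 1.36 and 2.50 in the 8 PPARα-null arrays, against 11.83 to 12.75 in wild-type mice given WY14643 and 8.47 to 9.88 in wild-type mice given DHA. Of the 3 probesets of Ppara, 1 separated the genotypes, with 5.29 to 6.56 in the 8 PPARα-null arrays and 7.24 to 9.58 in the wild-type arrays of both treatments. The brightest did not, at 8.82 to 10.26 in the PPARα-null arrays and 9.96 to 11.71 in the wild-type arrays, and the third reached 7.42 in PPARα-null mice given WY14643 and went down to 6.999 in wild-type mice given DHA. For the tissue label, 13 enterocyte genes, 9 goblet cell genes and 7 Paneth cell genes were expressed, and the summed linear level of the first was 139810 to 148370 in the 8 arrays. In 3 arrays of the OA and EPA groups the genotype markers went against the label. None of them belongs to the groups compared here, but they share the estimate of spread.

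One array stood apart within its group. On the first principal component of the 17 PPARα-null arrays, which held 33.8% of the variance, the 4 WY14643 arrays lay at 34.9 to 48.1, DHA replicates 1, 2 and 4 at -26.7 to -9.41, and the 9 arrays of oleic acid (OA) and EPA, the other fatty acids of the series, at -29.3 to -4.57. Among the 9 were OA replicate 1 and EPA replicate 5, labelled PPARα-null, whose genotype markers went against the label. DHA replicate 3 lay at 25.9, between the treatments. For 1351 of the 1717 called genes it was the DHA array nearest to the WY14643 mean, and in the median gene it covered 0.664 of the gap between that mean and the mean of the other DHA arrays. The cause of its position was not tested. Counts over all genes and for many of the gene lists are therefore given with and without this array.

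**Figure D1:**
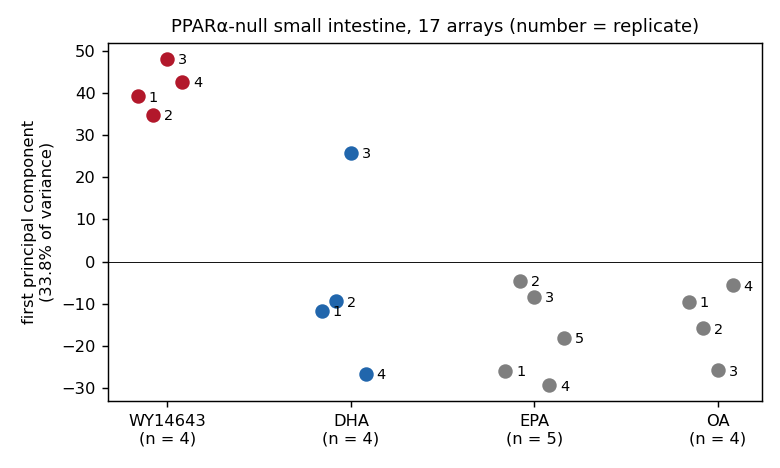
First principal component of the 17 PPARα-null arrays (y axis, 33.8% of the variance) by treatment (x axis), with 1 point per mouse and its replicate number. The 4 WY14643 arrays lie above 34, DHA replicate 3 lies at 25.9, and all other arrays lie below 0. The genotype markers of OA replicate 1 and EPA replicate 5 went against their label.

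Promoter sequences are shown first for 2 groups of genes that the results turn on, the chaperones of the endoplasmic reticulum (ER) and the factors of ribosome assembly and translation. Most members of both groups that differed had lower RNA after WY14643 than after DHA. RefSeq promoter windows (mouse build GRCm38.p6, 250 bases before to 50 after the gene start) were at hand for 7049 of the 8626 expressed genes (81.7%). The ER stress element, CCAAT and CCACG 9 bases apart on either strand, is the site through which unfolded proteins in the ER raise chaperone transcription. It stood in 14 of the 7049 windows (0.199%), in 37 of all 27025 windows (0.137%), in 8 of 31 windows of the unfolded protein and stress list (25.8%), and in 4 of the 16 windows of that list's called members, those of Hspa5, Hsp90b1, Calr and Pdia6. The stretches below are the gene's own strand, 5′ to 3′, with the element in capitals, and Creld2 is shown as a gene with the element that did not pass the test (it passed without the 3 arrays named above, adjusted p = 0.0345, limma). The stretches lie at chr2:34771995-34772073 (Hspa5, plus strand), chr10:86705503-86705686 (Hsp90b1, minus strand, 2 elements), chr8:84847045-84847123 (Calr, minus strand), chr12:17266461-17266539 (Pdia6, plus strand) and chr15:88819490-88819568 (Creld2, plus strand).
Hspa5: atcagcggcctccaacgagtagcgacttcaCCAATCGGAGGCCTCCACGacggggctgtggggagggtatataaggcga
Hsp90b1: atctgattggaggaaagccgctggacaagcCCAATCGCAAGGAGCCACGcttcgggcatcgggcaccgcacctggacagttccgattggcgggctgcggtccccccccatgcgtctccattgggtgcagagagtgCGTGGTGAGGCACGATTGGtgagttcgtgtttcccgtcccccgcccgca
Calr: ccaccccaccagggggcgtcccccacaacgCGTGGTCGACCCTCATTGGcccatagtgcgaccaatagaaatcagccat
Pdia6: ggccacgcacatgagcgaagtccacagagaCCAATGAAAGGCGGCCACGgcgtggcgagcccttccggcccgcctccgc
Creld2: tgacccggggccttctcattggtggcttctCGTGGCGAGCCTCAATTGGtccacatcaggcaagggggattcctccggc

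The element began 65 bases before the start of Hspa5, 98 before that of Pdia6, 162 before that of Calr and 126 before that of Creld2, and in Hsp90b1 the first of its pair began at 212. Canx, Dnajc3 and Syvn1 held it too and were not called. The second motif was the E-box CACGTG, which reads the same on both strands and is bound by Myc and related factors. It stood in 8 of 25 windows of the ribosome biogenesis and translation list (32%), against 12.4% of the windows of expressed genes and 8.09% of all windows. It stood in 16.1% of the windows of all genes called lower after WY14643 and 11.1% of those called higher. The stretches shown are at chr6:125131793-125131858 (Nop2, plus strand), chr11:69672577-69672642 (Eif4a1, minus strand) and chr10:81176558-81176623 (Eef2, plus strand), the last being an elongation factor that did not pass the test. The amino acid response element TGATGNAAT, searched on both strands because ATF4 targets are described below, stood in 0.596% of the windows of expressed genes and in 2 of the 31 of the unfolded protein and stress list. A match is a stretch of letters and not a measured binding site.
Nop2: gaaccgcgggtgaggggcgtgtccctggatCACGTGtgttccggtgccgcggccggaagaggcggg
Eif4a1: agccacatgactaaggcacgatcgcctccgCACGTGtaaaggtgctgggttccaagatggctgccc
Eef2: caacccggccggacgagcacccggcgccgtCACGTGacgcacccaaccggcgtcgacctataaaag

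Of the 1717 called genes, 940 (10.9% of those tested) were higher after WY14643 than after DHA and 780 (9.04%) were lower, with 3 genes (Asah2, Rnf166 and Tmed5) whose probesets went both ways. These shares are the background for the list counts of the fit to all arrays. A gene was called when a probeset had an adjusted p under 0.05 in limma, adjusted by Benjamini-Hochberg over all expressed probesets. Most differences were small. The median size over called genes was 0.55 on the log2 scale, and 237 genes passed a 2-fold difference, 112 higher and 125 lower. Without DHA replicate 3 the fit called 2554 genes, 1341 higher (15.5%) and 1219 lower (14.1%), and 1672 of the 1717 were among them. The 4 and 4 arrays did not overlap for 933 of the 1717 called genes, in a table where 18% of all expressed genes had such a probeset. The spread was estimated from all 35 arrays. With the 8 arrays alone 304 genes were called, and with 1 array left out at a time the count ran from 470, without DHA replicate 4, to 2554.

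The largest difference among the genes higher after WY14643 was in Pck1, the cytosolic enzyme that makes phosphoenolpyruvate in gluconeogenesis and glyceroneogenesis. Its log2 level was 9.94, 10.63, 10.22 and 10.07 in the WY14643 arrays and 3.86, 4.57, 9.56 and 6.68 in the DHA arrays. All WY14643 arrays were above all DHA arrays, and DHA replicate 3 lay close under them. The difference was 4.04 (SE 0.96, adjusted p = 0.00655, limma), or 16.5-fold, and it was 5.17 without that replicate. A second probeset of Pck1 differed by 3.09. G6pc, which releases free glucose from glucose 6-phosphate, read 10.08, 10.64, 10.67 and 11.07 after WY14643 and 8.02, 8.64, 10.02 and 9.03 after DHA. The lowest WY14643 array lay just above DHA replicate 3, and the difference was 1.69 (SE 0.47, adjusted p = 0.017, limma). The call for G6pc was lost without DHA replicate 1, 2 or 4 or WY14643 replicate 4 (adjusted p up to 0.0722). Fbp1, the third gluconeogenic enzyme of the list, was 0.68 higher, with 12.07 to 12.24 against 10.94 to 11.99.

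With these, 6 of 16 expressed genes of the ketone, pyruvate and gluconeogenesis list were higher after WY14643 and none was lower, with a median of 0.25 over the list against 0.03 over all expressed genes. The others were Acat1, a thiolase of ketone metabolism (0.27), and the pyruvate dehydrogenase kinases Pdk1 (0.49) and Pdk2 (1.10), which hold back the entry of pyruvate into the citric acid cycle. Leaving out 1 array at a time gave 3 genes (without DHA replicate 2 or 4) to 6, and 1 was called with the 8 arrays alone. Pdk4, the kinase best known as a PPAR target, had a difference of 1.63 and did not pass (adjusted p = 0.0868, limma), but passed without the 3 arrays that went against their genotype label (adjusted p = 0.00612).

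**Figure D2:**
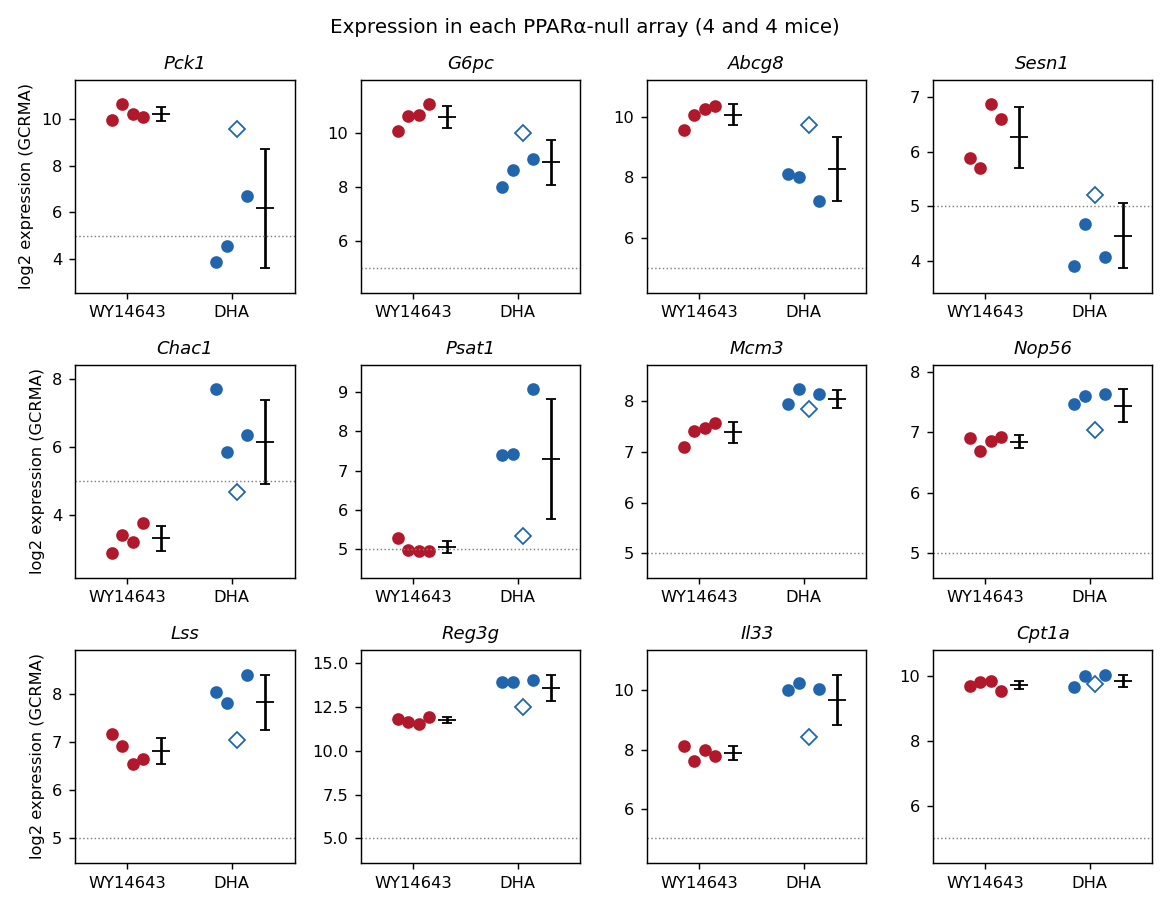
Log2 expression (GCRMA, y axis) of 12 genes in each PPARα-null array after WY14643 and after DHA (x axis), with 1 point per mouse. Black marks give the mean and SD (n = 4), the open diamond is DHA replicate 3 and the dotted line is the level of 5 above which a probeset counted as expressed. Pck1, G6pc, Abcg8 and Sesn1 were higher after WY14643, Chac1, Psat1, Mcm3, Nop56, Lss, Reg3g and Il33 were lower, and Cpt1a did not differ past the test.

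Genes of the glucocorticoid and fasting list were higher after WY14643 where they passed. All 21 expressed genes of the glucocorticoid and fasting list had a difference above 0, with a median of 0.39, and 6 of them passed. These were Pck1, Klf15, Sesn1, Sesn3, Ddit4 and Igfbp3. Sesn1, a stress-induced inhibitor of the growth kinase mTORC1, read 5.88, 5.69, 6.86 and 6.60 after WY14643 and 3.91, 4.68, 5.20 and 4.07 after DHA, without overlap (difference 1.79, SE 0.32, adjusted p = 0.00131, limma). The DHA mean was under the level of 5, so that the fold is given as at least 2.39. Ddit4, another inhibitor of mTORC1, read 5.74 to 6.01 against 4.30 to 5.32, a difference of 1.32 (adjusted p = 0.00209). Klf15, a transcription factor of fasting metabolism, read 5.96, 5.97, 6.87 and 6.57 against at most 4.92 in DHA replicates 1, 2 and 4 and 6.13 in replicate 3, a difference of 1.47 that was 1.89 without replicate 3. The other 15 members, which include Tsc22d3 (0.60), Sgk1 (0.53) and Foxo1 (0.41), did not pass. The count ran from 3, without DHA replicate 4 or WY14643 replicate 3, to 8, without DHA replicate 3, and was 3 with the 8 arrays alone.

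Lower levels after WY14643 were found in most genes of ribosome assembly. In the ribosome biogenesis and translation list, 23 of 32 expressed genes were lower after WY14643 than after DHA and none was higher, with a median of -0.47. Without DHA replicate 3 these counts were 26 and 1. Nop58, a core protein of the box C/D particles that guide methylation of ribosomal RNA, read 4.98, 4.53, 4.49 and 4.94 after WY14643 and 5.93, 6.40, 5.65 and 6.22 after DHA. The groups did not overlap (difference -1.31, SE 0.28, adjusted p = 0.0036, limma). Its partner Nop56 read 6.69 to 6.92 against 7.04 to 7.63 (-0.59), and the methyltransferase of the same particle, Fbl, 8.31 to 8.67 against 8.82 to 9.28 (-0.62). Nucleolin, Ncl, differed by -0.74, the nucleolar RNA helicase Ddx21 by -1.04, and Polr1a, the largest subunit of RNA polymerase I, by -0.87 with both means under the level of 5. Mybbp1a had the smallest adjusted p of the list (difference -0.78, SE 0.13, adjusted p = 0.000846). In the translation part of the list, the cap-binding protein Eif4e was 0.55 lower, its helicase partner Eif4a1 0.30 lower and its inhibitor Eif4ebp1 1.13 lower on the log2 scale. DHA replicate 3 was the DHA array nearest to the WY14643 mean in all 23 called genes, and 9 of the 23 showed no overlap between groups. Over all called genes 933 of 1717 (54.3%) showed none. Between 11 genes, without DHA replicate 4, and 26 were called lower with 1 array left out at a time (13 without DHA replicate 2), and 7 with the 8 arrays alone.

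Genes of protein folding and amino acid supply were lower as well. In the unfolded protein and integrated stress list 17 of 36 expressed genes were lower after WY14643 and 2 were higher, with a median of -0.38. Among the called genes were ER chaperones and genes of amino acid supply. The ER chaperone Hspa5 (BiP) read 11.54, 11.70, 11.55 and 11.45 after WY14643 and 12.06, 12.46, 11.67 and 12.06 after DHA. The ranges overlapped by replicate 3 alone (difference -0.50, SE 0.13, adjusted p = 0.0135, limma). With array weights a further probeset of Hspa5 went the other way (0.74, adjusted p = 0.00717, limma), while those at -0.42 and -0.56 were lower. Hsp90b1 differed by -0.31, Calr by -0.31, Pdia6 by -0.49, Dnajb11 by -0.41, the secreted factor Manf by -0.51 and the transcription factor Xbp1 by -0.44.

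Among the targets of ATF4 and the amino acid genes, Chac1, a glutathione-degrading target of ATF4, read 2.88, 3.41, 3.22 and 3.75 after WY14643 and 7.69, 5.86, 4.68 and 6.35 after DHA. All WY14643 arrays were under all DHA arrays (difference -2.83, SE 0.57, adjusted p = 0.00297, limma), and the fold was at least 2.21. Psat1, the aminotransferase of serine synthesis, read 5.28, 4.99, 4.97 and 4.97 against 7.39, 7.42, 5.34 and 9.06, a 4.75-fold difference (-2.25, SE 0.43, adjusted p = 0.00204). Phgdh, which opens the same pathway, was 1.51 lower, the mitochondrial serine hydroxymethyltransferase Shmt2 1.34 lower and asparagine synthetase Asns 1.11 lower on the log2 scale. Mthfd2, the folate enzyme that works beside Shmt2, was not on the list but was among the 15 largest differences in this direction. It read 5.45 to 5.81 after WY14643 against 7.91, 7.93, 6.996 and 9.06 after DHA (-2.27, adjusted p = 0.000364, limma). Atf4 itself differed by -0.46, and the tRNA synthetases Sars, Wars, Gars and Cars by -0.40 to -0.90. The 2 genes of the list that were higher after WY14643 were Herpud1 (0.68), a factor of ER-associated degradation, and Ddit4. The count of lower genes was 20 without DHA replicate 3, 8 without DHA replicate 4, and 10 without DHA replicate 2. With the 8 arrays alone 1 gene was lower (Chac1) and 2 were higher (Herpud1 and Ddit4).

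Replication genes followed the same direction. Of 44 expressed genes of the proliferation and DNA replication list, 18 were lower after WY14643 and none was higher (median -0.29). Mcm3, a subunit of the replicative helicase, read 7.09, 7.41, 7.48 and 7.56 after WY14643 and 7.94, 8.23, 7.84 and 8.15 after DHA. The groups were apart with DHA replicate 3 included (difference -0.66, SE 0.11, adjusted p = 0.000585, limma). Mcm2, Mcm4, Mcm5 and Mcm6 differed by -0.27 to -0.63. Cyclin D1, Ccnd1, read 5.60, 6.49, 5.87 and 6.71 after WY14643 and 7.28, 7.29, 7.24 and 7.31 after DHA (-1.11), so that the DHA arrays were nearly equal. Its call was lost in 5 of the 8 fits that left out 1 array (adjusted p up to 0.0915). Rrm2, which makes deoxynucleotides, differed by -0.89, Uhrf1 by -0.84 and E2f2 by -1.08. Ccnd2 differed by -1.40 on a dim probeset and by -1.05 on another, while 4 brighter ones did not pass. None of the 6 expressed genes of the stem cell list was called by limma, and 0 had an unadjusted p under 0.05. Without DHA replicate 3 the counts were 22 lower and 1 higher, 8 were lower without DHA replicate 4, 10 without DHA replicate 2, 11 without WY14643 replicate 3, and 4 with the 8 arrays alone.

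**Figure D3:**
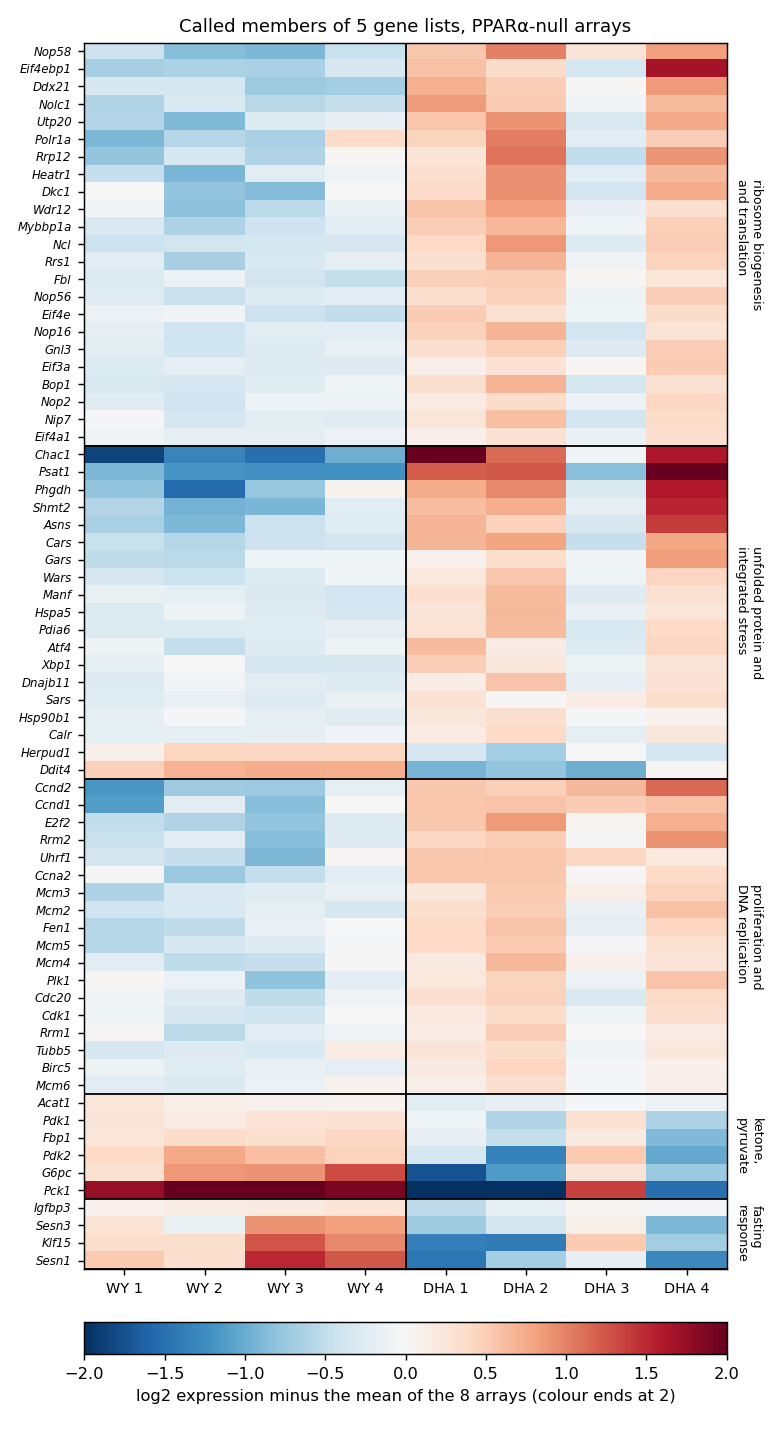
Log2 expression minus the mean of the 8 arrays (colour, red above and blue below, ending at 2) for the called members of 5 gene lists (rows) in the PPARα-null arrays (columns). DHA replicate 3 is the palest of the DHA columns, or takes the colour of the WY14643 arrays, in most rows.

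In the proteasome and autophagy list 9 of 36 genes were lower after WY14643, all of them among its 27 proteasome subunits, with differences of -0.19 to -0.40, such as Psmd14 (9.55 to 9.64 against 9.66 to 10.18). The 3 genes that were higher, 8.33% of the list against 10.9% of all expressed genes, were among its 9 autophagy genes. Map1lc3b, which is lipidated on the autophagosome membrane, read 10.14, 10.18, 10.27 and 10.22 after WY14643 and 9.64, 9.37, 9.78 and 9.53 after DHA, without overlap (difference 0.62, SE 0.11, adjusted p = 0.00134, limma). Its relative Gabarapl1 was 0.66 higher and the kinase Ulk1, which starts the process, 0.90 higher. The lower count was 16 without DHA replicate 3, 2 without DHA replicate 2 or 4, and 0 with the 8 arrays alone, which called 1 gene higher.

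Sterol genes differed in direction by role. Of 13 genes of sterol efflux and LXR targets, 5 were higher after WY14643 and none was lower. Abcg8, which with Abcg5 forms the pump that returns sterols to the gut lumen, read 9.58, 10.07, 10.27 and 10.34 after WY14643 and 8.10, 8.01, 9.74 and 7.23 after DHA. Replicate 3 alone reached the WY14643 range (difference 1.79, SE 0.38, adjusted p = 0.0036, limma), and the difference was 2.28 without it. Abcg5 was 0.82 higher, the lysosomal sterol carrier Npc2 0.29, the sterol 27-hydroxylase Cyp27a1 0.81 and Srebf1, the regulator of fatty acid synthesis, 0.85. Abca1, a further LXR target, had a difference of -0.56 and was not called. In the cholesterol synthesis list 5 of 18 genes were lower and 1, Sc5d, was higher, with a median of -0.34. Lss, which closes the sterol ring, read 7.17, 6.91, 6.55 and 6.64 against 8.05, 7.81, 7.05 and 8.41, overlapping by replicate 3 (-1.01, SE 0.22, adjusted p = 0.00424). Sqle (-0.97), Cyp51 (-0.83), Idi1 (-0.58) and Hsd17b7 (-0.54) were the other called genes, and Hmgcs1 (-0.45) and Fdft1 (-0.55) did not pass. The count of lower genes was 1 without DHA replicate 1, 2 or 4 and 6 without DHA replicate 3, and the sterol efflux count 3 to 6. With the 8 arrays alone limma called no gene in synthesis, none higher in efflux, and Abca1 lower by another probeset (-0.95).

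Bile acid handling of the ileum was lower after WY14643 in 4 of 8 expressed genes of its list. They were the apical uptake transporter Slc10a2 (-1.25), the cytosolic carrier Fabp6 (-0.53) and both subunits of the basolateral exporter, Slc51a (-0.47) and Slc51b (-0.88). For Slc10a2 the arrays read 7.53, 8.70, 7.30 and 7.14 after WY14643 and 8.95, 8.35, 8.47 and 9.88 after DHA. Here it was WY14643 replicate 2 that crossed into the other group. The list's count was 0 to 5 with 1 array left out at a time and 0 with the 8 arrays alone.

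PPAR targets gave few calls in the fit to all arrays, but this count depended on arrays outside the comparison. In the PPAR target list 3 of 31 genes passed, Decr1 higher (0.56) and Acadl (-0.36) and Pex11a (-1.01) lower, with a median of -0.02. Without the 3 arrays that went against their genotype label 12 of 31 passed, 7 higher and 5 lower. The genes that joined were Pdk4 (1.63), Angptl4 (1.35), Acaa1b (1.28), Vnn1 (0.91), Acaa1a (0.64) and Eci1 (0.40), which were higher after WY14643, and G0s2 (-1.15), Slc25a20 (-0.58) and Hadha (-0.31), which were lower. With array weights 7 were higher and 4 lower, without DHA replicate 3 there were 3 in each direction, and with the 8 arrays alone Acaa1b was the single call. Of all 8626 expressed genes, array weights called 3312. The fit without the 3 arrays was 1 of 13 settings that called 1203 to 1861 genes. In these settings 669 to 1020 genes were higher and 534 to 848 lower. Pex11a, a peroxisome division protein, read 8.10, 8.28, 8.61 and 8.97 after WY14643 and 9.49, 9.76, 8.67 and 10.08 after DHA, overlapping by replicate 3. Cpt1a, which admits fatty acids to mitochondria, had a difference of -0.14, Plin2, a coat protein of lipid droplets, -0.18 and the fatty acid binding protein Fabp1 -0.08. Angptl4 (1.35, adjusted p = 0.063, limma) and Pdk4 were the members with the largest positive differences and did not pass in the fit to all arrays. None of the 11 acyl-CoA thioesterase genes was called by limma (1 had an unadjusted p under 0.05), of 22 peroxisomal genes 1 was higher and 1 lower, and of 18 mitochondrial oxidation genes 5 were higher and 1 lower. The largest difference among these was in Acads, the short-chain acyl-CoA dehydrogenase, at 5.87, 6.72, 6.39 and 6.80 against 4.06, 4.51, 4.14 and 3.49 (difference 2.40, SE 0.58, adjusted p = 0.00774), with DHA replicate 3 inside its group. In fatty acid synthesis and desaturation 5 of 18 genes were higher and 3 lower, the latter being Fasn (-0.66), Elovl6 (-0.996) and Elovl7 (-0.56). These counts were 1 and 1 without DHA replicate 2, 0 and 1 without DHA replicate 4, and 0 and 0 with the 8 arrays alone. Of 21 genes of triacylglycerol resynthesis and chylomicron assembly 4 were higher and 2 lower, with 0 and 0 without DHA replicate 4 and 6 and 3 without DHA replicate 3. For mitochondrial oxidation 2 genes were higher without DHA replicate 1, 2 or 4 or WY14643 replicate 3, and of the peroxisomal genes 5 were higher without DHA replicate 3. Dgat1 was 1 of the lower ones by a dim probeset (-1.79) while its brightest probeset differed by 0.17, and Apob was higher by 1 probeset (1.13) while another read -0.94 without passing.

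Epithelial defence genes were lower after WY14643 where they passed. In the antimicrobial and acute phase list 4 of 15 genes were lower and none was higher. The median over that list was -0.0055, and 6 of the 15 genes had a difference above 0. Reg3g, a C-type lectin that kills Gram-positive bacteria, read 11.81, 11.65, 11.55 and 11.96 after WY14643 and 13.95, 13.95, 12.49 and 14.05 after DHA. The groups did not overlap, with replicate 3 nearest to WY14643 (difference -1.87, SE 0.46, adjusted p = 0.00809, limma; 3.65-fold). Reg3b, a related lectin, differed by -1.03 and the phospholipase Pla2g2a by -0.73. Sprr1a, a protein of the cornified envelope, read 3.50, 2.34, 2.48 and 2.92 against 7.99, 6.97, 2.25 and 9.08 (-3.76), so that DHA replicate 3 was below all WY14643 arrays. The inflammation list gave 4 lower genes of 16 and none higher, with a median of -0.24 and 7 differences above 0. Il33, an alarm cytokine of epithelial cells, read 7.61 to 8.14 against 10.03, 10.25, 8.42 and 10.05 (-1.81, adjusted p = 0.00666). Socs3, the feedback inhibitor of STAT3 signalling, read 3.03, 4.01, 3.49 and 3.23 against 8.42, 7.11, 4.70 and 5.81 (-3.07, adjusted p = 0.00997), a fold of at least 2.85 whose call was lost without DHA replicate 1 (adjusted p = 0.0515). Il18 (-0.52) and Ccl20 (-1.36) were the others. In both lists 6 genes were lower and 1 higher without DHA replicate 3, and 2 were lower without DHA replicate 4 or with the 8 arrays alone. The inflammation count was also 2 without DHA replicate 2 or any 1 of WY14643 replicates 2, 3 and 4. Interferon-induced genes went the other way, with 6 of 34 higher after WY14643, none lower and a median of 0.23. They were Irf7 (0.70), Ddx58 (1.34), Irgm1 (0.62), Gbp3 (0.65), Ifi35 (0.28) and Tapbp (0.28), but 1 was called without DHA replicate 4 or WY14643 replicate 4, and 0 with the 8 arrays alone.

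The lists of this paragraph are to be read beside all expressed genes, of which 10.9% were higher and 9.04% lower after WY14643. Without DHA replicate 3 these shares were 15.5% and 14.1%. Of 47 antioxidant genes 8 were lower and 3 higher after WY14643. The counts were 8 and 8 without DHA replicate 3, 1 and 1 without DHA replicate 4, and 3 and 0 with the 8 arrays alone. Among the lower ones were the glutathione peroxidase Gpx2 (9.90 to 10.80 against 11.06 to 12.18, -1.37), glutathione reductase Gsr (-1.18), Gclc (-0.77), Txnrd1 (-0.40), Srxn1 (-0.69), Pgd (-0.53) and Akr1b8 (-2.13). Gclm, the second subunit of the enzyme that Gclc belongs to, was 0.92 higher, at 8.98 to 9.29 against 7.92 to 8.97. In eicosanoid metabolism 5 of 18 genes were higher and 1 lower, among the former Ptgr1, which inactivates prostaglandins and leukotrienes, at 12.12 to 12.35 against 11.18 to 12.16 (0.64). In the mitochondrial Slc25 carriers 6 of 28 were higher and 3 lower, with Slc25a36, a pyrimidine nucleotide carrier, at 1.39 and the ornithine carrier Slc25a15 at 0.47. In the glutamine, proline, citrulline and urea cycle list 4 of 19 were higher, among them Arg2 (0.73) and Oat (0.48), and Odc1 (-0.47), which opens polyamine synthesis, was 1 of the 2 that were lower. Of 17 genes of sugar transport and digestion 3 were higher, lactase (Lct, 0.38), G6pc and the glucose 6-phosphate carrier Slc37a4 (0.60), and 2 lower, the glucose transporter Slc2a1 (-1.07) and hexokinase Hk2 (-0.94), while 9 were higher without DHA replicate 3 and 0 without DHA replicate 2 or 4. Between leaving out DHA replicate 4 and leaving out DHA replicate 3, the count of higher genes went from 1 to 7 for eicosanoid metabolism, 2 to 10 for the Slc25 carriers and 0 to 7 for the glutamine and urea cycle list, and with the 8 arrays alone it was 0, 2 and 0. Of 28 nuclear receptors and coregulators 4 were higher (14.3%, against 10.9% of all expressed genes) and none was lower (5 and 2 without DHA replicate 3, 2 and 0 without DHA replicate 4). The vitamin D receptor Vdr was at 0.81 and the glucocorticoid receptor Nr3c1 at 0.31. Of 14 clock genes 13 had a difference above 0 (median 0.43), 2 were called higher (Hlf and Wee1), and Per3 was called lower by a dim probeset (-1.20) while its other probeset read 0.71. The clock count of higher genes was 5 without DHA replicate 3, and 0 without DHA replicate 2 or 4, without WY14643 replicate 3 or with the 8 arrays alone. Of the 71 respiratory chain subunits 2 were higher and none was lower, with 6 higher without WY14643 replicate 2 and 0 without WY14643 replicate 1, without DHA replicate 4 or with the 8 arrays alone.

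**Figure D4:**
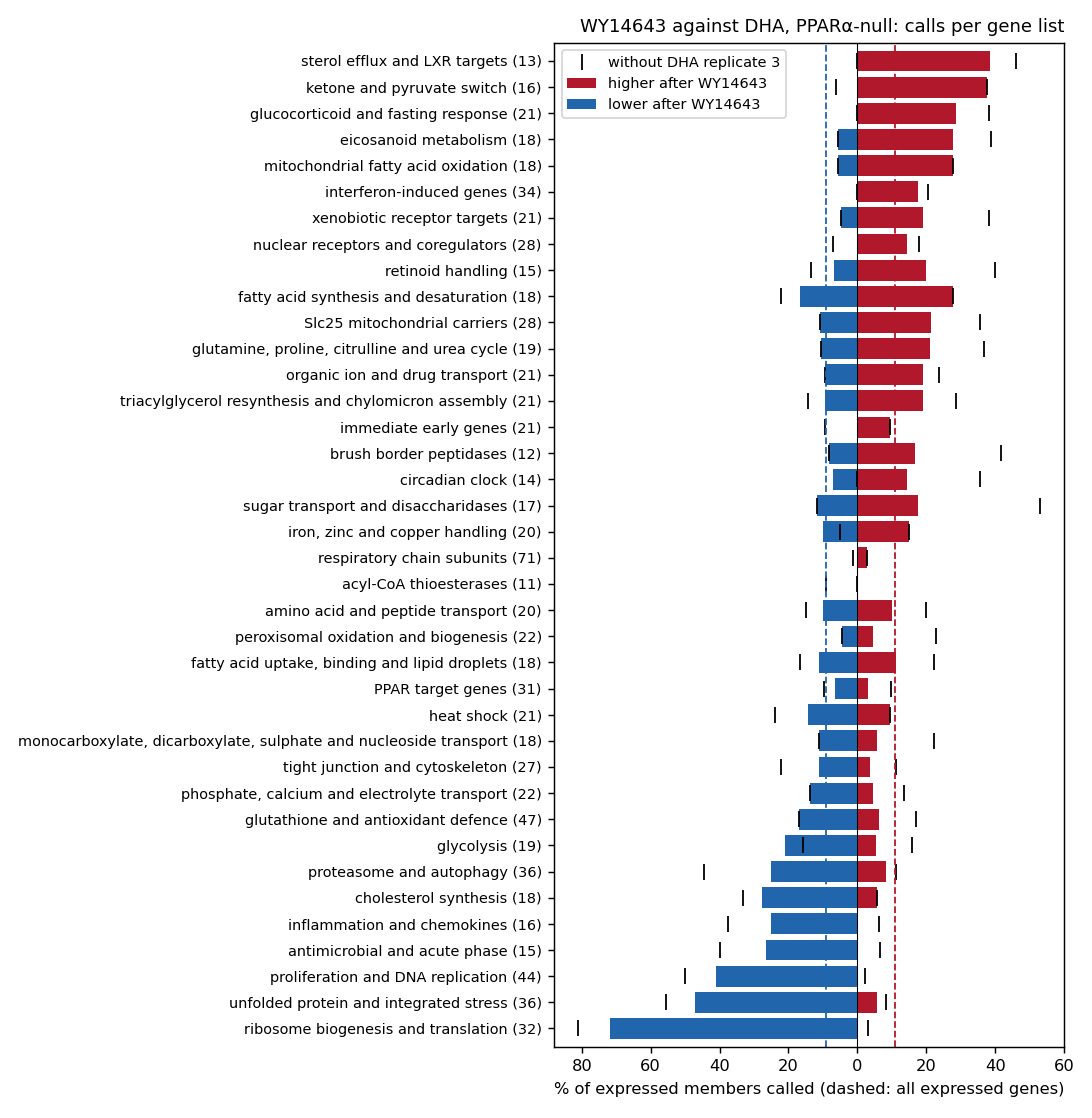
Percent of the expressed members of each gene list with at least 10 of them (number in brackets) that were called higher after WY14643 (red, right) or lower (blue, left) in PPARα-null mice. Ticks give the percent without DHA replicate 3, and dashed lines mark 10.9% and 9.04%, the shares of all expressed genes. The bars of the ribosome biogenesis, unfolded protein and proliferation lists reach furthest to the left. Those of the sterol efflux, ketone and fasting lists reach furthest to the right. Among the ticks the sugar transport list lies furthest to the right (9 of 17 genes), so that this order depends on DHA replicate 3.

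The largest differences were chosen by size among called genes whose arrays did not overlap, 15 in each direction. After Pck1, the genes higher after WY14643 were B4galnt2 (2.79), Neurl1b (2.77), Apoa2 (2.47), Sectm1a (2.44), Acads (2.40), Akt1s1 (2.37), Pbld1 (2.29), Tmem229b (2.09), Nrg4 (1.98), Epha1 (1.90), Sesn1 (1.79), Bst1 (1.74), Nufip2 (1.72) and Nt5e (1.71). Neurl1b, a ubiquitin ligase that acts on Notch ligands, had the smallest adjusted p among these, with 7.33, 6.98, 6.74 and 7.15 after WY14643 and 4.19, 4.68, 5.11 and 3.15 after DHA (SE 0.41, adjusted p = 0.000364, limma). Akt1s1 encodes a further inhibitor within mTORC1 (5.33 to 6.39 against 2.32 to 4.77). Nt5e, the ectoenzyme that makes adenosine, read 10.37, 10.12, 10.40 and 10.16 against 8.09, 7.80, 10.08 and 8.24, so that DHA replicate 3 almost met the WY14643 range. Other probesets of B4galnt2 and Nufip2 differed by close to 0.

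Lower after WY14643 were Anp32a (-4.52), Ptk6 (-3.27), Socs3, Chac1, Mboat1 (-2.41), Tifa (-2.39), Mthfd2, Psat1, Cpsf6 (-2.03), Prss27 (-1.97), Ereg (-1.91), Reg3g, Il33, Chst4 (-1.81) and Fam102b (-1.80). Ptk6, an epithelial tyrosine kinase, read 4.64, 5.12, 4.09 and 4.54 after WY14643 and 9.19, 8.21, 5.82 and 8.24 after DHA (SE 0.68, adjusted p = 0.00344, limma), a fold of at least 7.28. Ereg, a ligand of the EGF receptor, read 5.07 to 6.03 against 6.33 to 8.41, and Tifa, an adaptor of innate immune signalling, at most 7.81 against 8.26 to 10.73. Both means were under 5 for Mboat1 and Prss27, and for Prss27 DHA replicate 3 and the highest WY14643 array both read 2.38. The brighter probeset of Anp32a differed by 0.28 without passing and the other probesets of Cpsf6 did not differ past the test, so that neither value stands for the whole gene. Of the 30 genes 24 were called with the 8 arrays alone and 22 whichever array was left out. Of all 231 called list members, 46 and 60 met these conditions.

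RNA of other cell types was followed with marker lists. Pancreatic acinar genes had the largest median of the 59 lists with an expressed member, -1.90 over 23 genes, with 3 differences above 0, 2 unadjusted p under 0.05 and no call by limma. Their summed linear level was 55115 to 73506 after WY14643 and 69481 to 130740 after DHA, with DHA replicate 4 the highest. Prss2 differed by -2.46 (adjusted p = 0.201), and Reg2, the gene with the widest difference (-3.04), had an adjusted p of 0.152. The summed level of 7 adipocyte genes was 7458 to 9350 after WY14643 and 3589 to 6666 after DHA, and 3 of them were called higher, Pck1, Nrg4 and Adipor2. The other 4 (Fabp4, Car3, Cidec and Lipe) were not called, with Fabp4 at -0.50. T cell genes summed to 785 to 1043 against 285 to 925, with Gzma called higher (1.06). Of the 2 expressed hepatocyte genes Apoa2 was called higher (5.52-fold). Goblet genes summed to 79289 to 84835 against 79158 to 87026 and Paneth genes to 38882 to 41975 against 38494 to 46698. The part of these cell types in the results above was not tested.

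Wild-type mice, 4 given WY14643 and 5 given DHA, show what the same pair of doses gave with the receptor present, and they share no array with the PPARα-null groups. Both contrasts use the 1 estimate of spread from all 35 arrays, so that their calls are not independent. There 1703 genes (19.7%) were higher after WY14643 and 1796 (20.8%) lower. Of the 940 genes higher in PPARα-null mice, 679 (72.2%) were also called higher in wild-type mice, which is 39.9% of the wild-type list. Of the 780 lower genes 644 (82.6%) were called lower in wild-type mice, 35.9% of that list, and 16 genes were called in opposite directions. All 23 ribosome biogenesis genes, all 18 proliferation genes and all 19 genes of the unfolded protein list that were called in PPARα-null mice were called in the same direction in wild-type mice. Chac1 differed by -2.96 there, Psat1 by -2.43, Mcm3 by -0.65, Nop56 by -0.81, Pck1 by 4.64, G6pc by 2.14 and Abcg8 by 2.53. Socs3 (-1.11), Reg3g (-0.91) and Apoa2 (0.56) were not called in wild-type mice, but the difference between genotypes did not pass for these genes or for any other of the 30 largest.

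PPAR targets gave different counts in the genotypes. In the PPAR target list 22 of 31 genes were higher after WY14643 in wild-type mice and none was lower, with a median of 0.70 against -0.02 in PPARα-null mice. The mitochondrial oxidation list gave 17 of 18 in wild-type mice and the peroxisomal list 18 of 22. The difference between genotypes was itself tested as an interaction, which called 50 of 8626 genes (0.58%), 37 with the wild-type difference above and 13 below that of PPARα-null mice. Of the 31 PPAR targets 5 were among them, Acot3, Ehhadh, Hadha, Hadhb and Cpt1a, the last on a probeset that read 0.67 in wild-type and -0.33 in PPARα-null mice. For Acot3, a peroxisomal acyl-CoA thioesterase, the difference was 4.58 in wild-type and 0.11 in PPARα-null mice (interaction 4.47, SE 0.52, adjusted p = 7.9e-06, limma), with both PPARα-null means under 5. Ehhadh, the peroxisomal bifunctional enzyme, differed by 2.09 and 0.44 (interaction 1.65, adjusted p = 0.0061). The genotypes are of different substrains, so that receptor and substrain cannot be told apart.

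**Figure D5:**
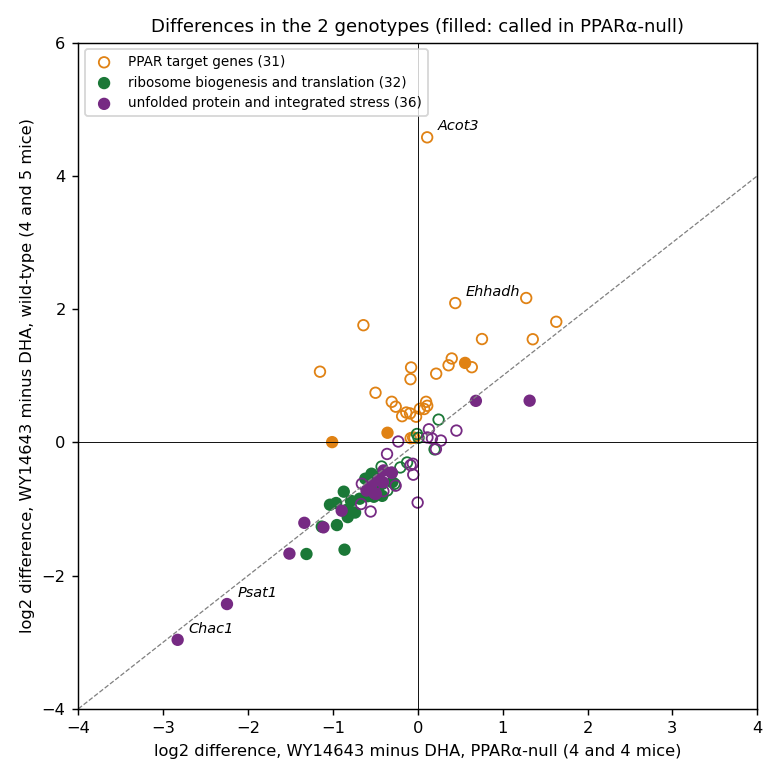
Log2 difference of WY14643 minus DHA in PPARα-null mice (x axis) against that in wild-type mice (y axis) for the members of 3 gene lists, filled where called in PPARα-null mice. Ribosome biogenesis and unfolded protein genes lie near the dashed line of equal differences, while all 31 PPAR targets lie above it and Acot3 stands near 4.6 on the y axis at 0.11 on the x axis.

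Of the genes called in PPARα-null mice 11 also passed the interaction, and their values are those of the probeset that passed it. Slc37a2, a sugar phosphate exchanger, had a difference of 1.01 in PPARα-null and -1.23 in wild-type mice (interaction -2.24, SE 0.38, adjusted p = 0.00277, limma). Vps37a, a subunit of the ESCRT-I sorting complex, had 0.53 and -0.33, and the aldo-keto reductase Akr1c13 0.47 and -0.40. Its paralog Akr1c12 had 0.53 and -0.13, and Nat8f1 0.99 and -0.19. Prss30 had -1.37 and 0.41 and Aldh9a1 -0.24 and 0.18. Srebf1 (0.85 and 2.50), Cytip (1.05 and 2.72), Tmem64 (0.41 and 1.04) and Bfar (0.42 and 1.13) were higher after WY14643 in both genotypes and more so in wild-type mice, but Tmem64 (adjusted p = 0.0518) and Bfar (adjusted p = 0.0733) did not pass limma's interaction test without DHA replicate 3. Akr1c12 and Akr1c13 are close paralogs whose probes may cross-hybridise, and their values are uncertain for that reason.

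The other fatty acids place the PPARα-null comparison, although these contrasts share its arrays and are set side by side only. Of 8626 genes WY14643 against OA called 2714 (31.5%, 1575 higher and 1143 lower after WY14643). WY14643 against EPA called 3258 (37.8%, 1806 higher and 1469 lower after WY14643). DHA against OA called 113 (1.31%, 28 higher and 85 lower, with 1920 probesets at an unadjusted p under 0.05 in limma). Without the 3 arrays whose genotype markers went against the label the counts were 2632, 3076 and 149. Of the 32 ribosome biogenesis genes 22 were lower after WY14643 than after OA and 25 lower than after EPA, with none called between DHA and OA by limma. For the unfolded protein list the lower genes were 20, 20 and 0, for proliferation 26, 22 and 0, and for cholesterol synthesis 12, 12 and 1. Without the 3 arrays the lower ribosome biogenesis genes were 23, 25 and 0, and those of the unfolded protein list 18, 20 and 0. For proliferation they were then 24, 20 and 0, and for cholesterol synthesis 11, 12 and 0. Of the 21 fasting genes 9 were higher after WY14643 than after OA and 14 higher and 2 lower than after EPA. Without the 3 arrays 10 were higher than after OA, and 14 higher and 0 lower than after EPA. Interferon-induced genes differed in this view, since 10 of 34 were lower after DHA than after OA, 8 were lower and 1 higher after WY14643 than after OA, and 6 were higher after WY14643 than after DHA. Without the 3 arrays the counts against OA were 8 lower after DHA, and 10 lower and 2 higher after WY14643. Acinar genes also differed, with 20 of 23 lower and 1 higher after WY14643 than after OA. Against EPA 0 were lower and 1 was higher. PPAR targets gave 13 lower genes of 31 against OA and none higher, and 13 and 6 without the 3 arrays whose genotype markers went against the label. Against EPA 4 were lower and 3 higher, and 2 and 9 without these arrays.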

How the data were processed

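Small intestinal RNA of single mice was hybridised to Affymetrix whole-genome mouse arrays. The authors had computed and deposited log2 expression estimates by GCRMA, a method that subtracts background by probe sequence, equalises the arrays and merges the probes of each probeset into 1 value; its version is not given in the sources used here. The deposited log2 values of 45101 probesets on 35 arrays were used as they were, less 64 controls. Gene symbols came from the array's probe table, and 34945 probesets had a single symbol. Expressed probesets had a group mean above 5 in at least 1 group; 32.02 to 32.38% of probesets lay above that level on the 8 arrays. With arrays, the number of mice limits the precision.

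limma 3.58.1 in R 4.3.3 fitted 1 model with 8 group means to all 35 arrays, with an intensity trend in the empirical Bayes step. Benjamini-Hochberg adjustment ran over 15384 expressed probesets. A fold is given where both group means passed 5, as at least the brighter mean over 32 where 1 did, and not where neither did. A gene is shown by its called probeset of largest difference, or with none called by that of highest mean. SE values are those of the contrast. The script was tested on simulated data. Genes named are the 15 largest called differences without overlap in each direction, members of the lists and genes that passed the interaction. The members and lists were chosen with earlier results of these data known, and the ER stress element was added after the list counts had been seen. Alternatives were other filters, scalings, sample sets, array weights, a replicate block and leaving out each array. Nothing in the sources says that mice of a group came from separate litters or cages. Motifs searched beside those reported were a sterol, an antioxidant, a xenobiotic and a heat shock element and a direct repeat of nuclear receptor sites. Promoter sequences are from RefSeq, GRCm38.p6.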

Additional observations from a re-analysis of the deposited data

Results flagged for a closer look

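In 6 of 72 groups of 4 values tested, 1 array lay far from the other 3; chance gives about 1 in 20. Given as the gap to the nearest value over the group's whole range, DHA replicate 3 was low in Reg3g (0.932, 12.49 against 13.95 to 14.05), Il33 (0.878, 8.42 against 10.03 to 10.25) and Chst4 (0.908, 6.91 against 8.86 to 9.06). WY14643 replicate 1 was high in Psat1 (0.913, 5.28 against 4.97 to 4.99). WY14643 replicate 4 was low in the summed T cell level (0.879, 785 against 1012 to 1043) and DHA replicate 4 high in the summed hepatocyte level (0.852, 400.0 against 209 to 237).

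Genes called in PPARα-null mice and members of the PPAR target, mitochondrial oxidation, thioesterase and sterol efflux lists were looked up in limma's interaction test. For 20 of them the WY14643 to DHA difference itself differed between genotypes. Members of the other lists that passed it are not given here. The wild-type difference was above that of PPARα-null mice, on the log2 scale, by 4.47 for Acot3, 1.65 for Ehhadh, 0.683 for Lpcat3, 0.871 for Etfdh, 1.65 for Srebf1, 3.01 for Abca1, 1.67 for Cytip, 0.628 for Tmem64, 0.815 for Hadhb, 1.78 for Prss30, 1.51 for Acot4, 0.421 for Aldh9a1, 1.00 for Cpt1a, 0.702 for Bfar and 0.916 for Hadha. It was below by -2.24 for Slc37a2, -0.861 for Vps37a, -0.879 for Akr1c13, -0.665 for Akr1c12 and -1.18 for Nat8f1.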

How the results depend on the processing

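The number of genes called in PPARα-null mice depended most on which arrays set the spread. With the 8 arrays alone it was 304 (156 higher, 149 lower), with array weights 3312 (1878 and 1467), and at an adjusted p under 0.01 it was 538 (283 and 255). Leaving out 1 array gave 470 to 2554 genes (232 to 1341 higher, 238 to 1219 lower); the count was 1079 without DHA replicate 1, 1008 without DHA replicate 2, 470 without DHA replicate 4, 922 without WY14643 replicate 3 and 2554 without DHA replicate 3. The other 13 of 16 settings gave 1203 to 1861. In wild-type mice the count was 2237 at an adjusted p under 0.01 and 2834 to 3677 with 1 array left out. The interaction called 105 genes without the 3 arrays of other groups that went against their genotype label, 317 with array weights, 299 where the unadjusted p was under 0.01 and 17 where the adjusted p was; with 1 array left out it called 19 (without wild-type WY14643 replicate 2) to 66 (without wild-type WY14643 replicate 4). Correlations of deviations between equal replicate numbers were 0.237, -0.474, 0.0617 and 0.0765. They differ in sign and show no common pairing of the mice, but so few values cannot exclude one. With the replicate block 1835 genes were called in PPARα-null mice (993 higher, 848 lower), 3406 in wild-type mice and 50 by the interaction. The share of the called genes that were higher was 54.2 to 58.4% across scalings. Of 657 recomputed values of the 30 largest genes 631 kept direction and call, 23 lost the call and 3 turned: with 1 probeset per gene Anp32a read 0.281 and Cpsf6 0.1808, and Cpsf6 also read 0.1808 with group means above 6. The cause of these changes was not tested, apart from the other probeset being read in the last 3. Levels under 32 are near background, and differences there are of uncertain size.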
